A study of Rattus norvegicus with 93 samples.

Results

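The vesicular glutamate transporters are the products of Slc17a6, Slc17a7 and Slc17a8, and the 3 genes were taken by symbol from the 38354 genes of the expression table. They were measured in tissue of the rostromedial tegmental nucleus, abbreviated RMTg, taken from outbred rats, in polyadenylated RNA sequenced for genetic work on avoidance learning and addiction. Of 93 samples named in the labels, 92 had a column and 49 of those libraries were used. The libraries used are those in which Nif3l1 took under 20% of the estimated counts and LOC120093067 with Zfp532 under 10% together. All samples form 1 group, outbred laboratory rats with tissue labelled as RMTg; strain source, age, sex, treatment and behaviour are not given in the sources used here. Nothing in the labels ties 2 libraries to 1 animal, so n counts libraries, and p-values measure the spread between these samples.

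Vesicular glutamate transporters load glutamate into synaptic vesicles, and a neuron that expresses one of them can release glutamate. In the rat brain, the Slc17a6 product (VGLUT2) predominates in the thalamus, deep midbrain and brainstem, and the Slc17a7 product (VGLUT1) in cerebral cortex, hippocampus and cerebellar granule cells. The Slc17a8 product (VGLUT3) is found mainly in neurons that also use another transmitter, among them serotonin neurons, striatal cholinergic interneurons and some GABA neurons. The RMTg is known as a mostly GABAergic nucleus that inhibits midbrain dopamine neurons and receives glutamatergic input from the lateral habenula.

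In RefSeq's GRCr8 annotation, Slc17a6 (gene ID 84487) spans chromosome 1, positions 110348447 to 110388499, on the plus strand. Slc17a7 (gene ID 116638) spans chromosome 1, positions 104786172 to 104798049, on the plus strand, and the starts of Slc17a6 and Slc17a7 lie 5.562 Mb apart. Slc17a8 (gene ID 266767) spans chromosome 7, positions 25881557 to 25936837, on the minus strand. No other gene of that annotation overlaps any of the 3 (0 overlaps each). The estimated counts were whole numbers within 0.01 in 49 of 49 libraries for Slc17a6 and for Slc17a7, but in 3 of 49 for Slc17a8. An estimated count that is not whole means that reads were divided between sequences, so the level of Slc17a8 is uncertain to that extent.

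Totals of the 49 libraries ranged from 9.55 to 50.2 M estimated counts (M, 1000000 counts; median 19.2 M). Levels are given as counts per 1000000 of the library total (CPM) and were not corrected for transcript length, so levels of different genes were not set against each other. Markers of the labelled nucleus were present. All 8 genes of a list of RMTg inhibitory transcription factors and peptides were above 1 CPM in 49 of 49 libraries. Among them were the transcription factors Gata3 (median 56.8 CPM), Sox14 (43.9 CPM) and Tal1 (29.2 CPM), and Gad1, which makes GABA, had a median of 453 CPM. Title numbers fall into series with wide gaps between them, which were lettered; the 49 libraries lie in series B (7), C (16), D (12), E (7) and F (7). A library is named below by its letter and its order within the series. The labels do not say what a series is, and here a series serves as a possible batch. The label of library C8 carries a corrected identifier.

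Slc17a6 was found in every one of the 49 libraries, at 3.53 CPM in the lowest, 10.7 CPM at the median and 29.04 CPM in the highest. The highest level was thus 8.23 times the lowest. Its mean was 12.9 ± 6.57 CPM (SD, n = 49). The coefficient of variation was 50.9%, against 6.57% from counting error at these depths (81 to 514 counts per library). On the log2(CPM + 1) scale its SD was 0.68, above that of 97.8% of the 1875 genes nearest to it in mean expression (the same decile), whose median SD was 0.29. The transcript thus differed between libraries by more than most genes of its abundance.

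The 3 highest libraries for Slc17a6 were D3 at 29.04 CPM (exact Poisson 95% interval 26.02 to 32.3), C21 at 28.8 CPM (26.1 to 31.6) and C11 at 26.6 CPM (23.5 to 29.9). The 3 lowest were B32 at 3.53 CPM (2.82 to 4.36), B28 at 4.62 CPM (4.05 to 5.26) and F2 at 5.05 CPM (4.30 to 5.89). The median was 16.6 CPM in series B, 9.89 in C, 15.05 in D, 8.89 in E and 9.60 in F. These neighbours in the order did not separate: limma's F test across the 5 series gave an adjusted p of 0.699 for Slc17a6. That test called 320 of 18749 genes (1.71%), and neither Slc17a7 (adjusted p = 0.842) nor Slc17a8 (adjusted p = 0.975) was among them.

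**Figure D1:**
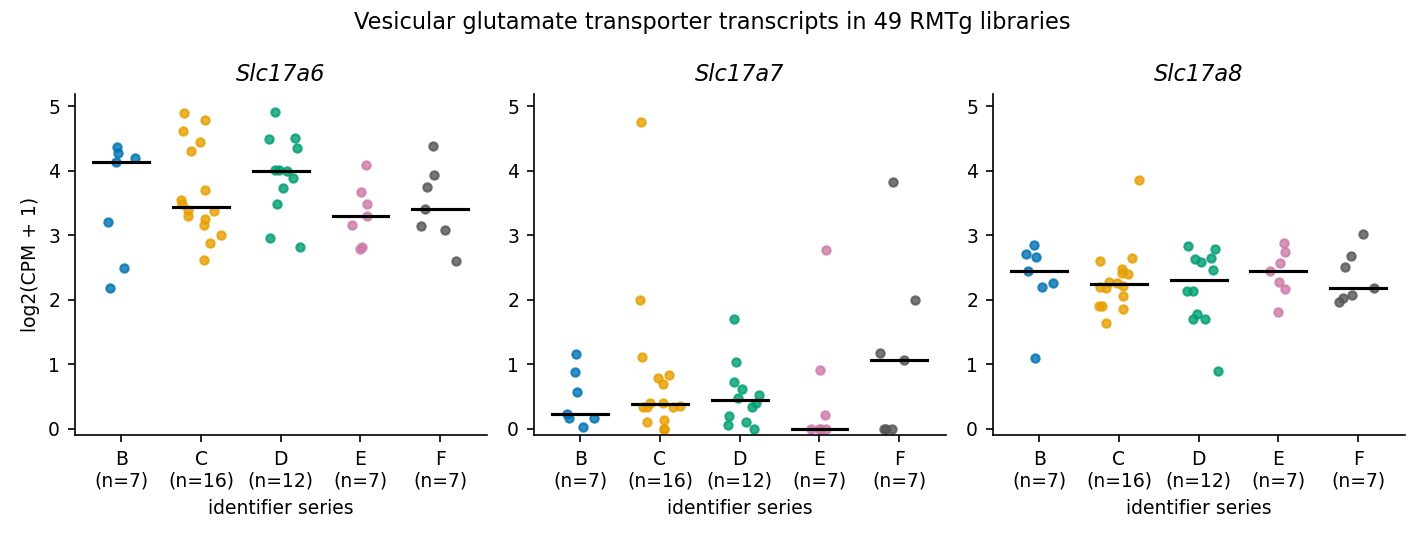
Levels of the 3 transporters as log2(CPM + 1) in each of 49 libraries (points), by identifier series, with the series median as a bar. Slc17a6 is spread widely within every series, Slc17a7 is near 0 in most libraries with 26.04 CPM in the highest, and Slc17a8 has 1 library at 13.4 CPM and 2 near 1 CPM, with the others between 2.14 and 7.13 CPM.

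Slc17a7 was listed at 0 in 10 of 49 libraries and had a median of 0.285 CPM. A count of 0 there allows up to 0.0709 to 0.225 CPM, by the 3-count limit at each library's depth; these limits and all intervals cover counting error only. It reached 1 CPM in 11 libraries and had more than 3 counts in 29. Library C17 stood far above the rest at 26.04 CPM, from 526 counts (interval 23.9 to 28.4). F6 had 13.2 CPM (170 counts), E1 had 5.86 CPM (178 counts), and F2 and C4 had 2.99 CPM each. The mean of 1.41 ± 4.14 CPM (SD, n = 49) therefore rests on a few libraries, and the coefficient of variation was 295%, against 19.9% from counting.

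Genes that mark forebrain and precerebellar excitatory neurons were read in the highest Slc17a7 libraries. C17 also ranked first of 49 for Lamp5, a membrane protein of cortical neurons (11.1 CPM, median 4.46), and for Sv2b, a synaptic vesicle protein (35.9 CPM, median 20.7). It ranked first for Fat2, a cadherin of precerebellar and granule cells (0.743 CPM, median 0.0415), and for Barhl1, a precerebellar transcription factor (0.248 CPM, median 0). Cabp7, a calcium-binding protein (r = 0.48 with Slc17a7), stood at 20.8 CPM in C17, against a median of 5.35 CPM. F6 instead ranked first for the cortical transcription factors Tbr1 (0.883 CPM), Emx1 (0.388 CPM) and Fezf2 (0.233 CPM), each below 1 CPM. A level below 1 CPM in C17 (total 20.2 M) or F6 (12.9 M) rests on few counts, so first ranks at such levels are uncertain. Across the whole lists, 4 of 9 cortical and hippocampal genes passed the expression filter (summed level 38.6 to 123 CPM), and 2 of 6 precerebellar genes did (1.13 to 6.99 CPM). Barhl1 was at 0 in 39 libraries, Emx1 in 31 and Fezf2 in 41. The part of neighbouring tissue in the Slc17a7 levels was not tested.

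Slc17a8 was found in 49 of 49 libraries, at 0.859 CPM in the lowest library, 3.83 CPM at the median and 13.4 CPM in the highest. Its mean was 4.22 ± 1.92 CPM (SD, n = 49) and its coefficient of variation 45.4%, against 11.5% from counting. The log2 SD of 0.49 exceeded that of 88.96% of genes of similar abundance. Series medians ran only from 3.54 CPM in F to 4.45 CPM in E.

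Library C22 stood apart for Slc17a8 at 13.4 CPM (236 estimated counts, interval 11.8 to 15.3), with F7 next at 7.13 CPM. C22 also had the highest level of 49 for Tph2, the serotonin-synthesis enzyme of the raphe (391 CPM, median 183), and the second highest for the serotonin transporter Slc6a4 (83.1 CPM, median 47.7). It was highest for Chat, which makes acetylcholine (1.31 CPM, median 0.0858), and for Slc32a1, the vesicular GABA transporter (67.8 CPM, median 37.2), but its Gad1 level of 421 CPM was below the median of 453 CPM. The lowest library for Slc17a8, D6 at 0.859 CPM (interval 0.438 to 1.52), was also lowest for Tph2 (92.1 CPM) and for Gad1 (234 CPM), yet ranked 4 of 49 for Slc32a1 (52.3 CPM). The next lowest libraries for Slc17a8 did not share this: B33, at 1.14 CPM of Slc17a8, ranked 4 of 49 for both Tph2 (288 CPM) and Slc6a4 (82.8 CPM). C7, at 2.14 CPM of Slc17a8, had 212 CPM of Tph2 and 67.003 CPM of Slc6a4, both above the medians. Over all 49 libraries, 4 of 4 serotonergic genes had slopes above 0 on Slc17a8, between 0.0061 and 0.083 on the log2 scale per SD of Slc17a8. Limma called 0 of the 4, and 0 of all 18748 genes tested (0%).

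The levels of the 3 transporters were not detectably related to each other across libraries. Pearson's r of log2(CPM + 1) was 0.015 between Slc17a6 and Slc17a7 (permutation test over 49 libraries, two-sided p = 0.918, adjusted over 3 pairs 0.944; Spearman's rho 0.078, p = 0.593). Slc17a6 and Slc17a8 had r = -0.15 (permutation p = 0.319, adjusted 0.944; rho -0.13, p = 0.390). Slc17a7 and Slc17a8 had r = -0.0096 (permutation p = 0.944, adjusted 0.944; rho 0.011). Within single series the signs differed. For Slc17a6 and Slc17a7, r was 0.70 in B, -0.056 in C, 0.18 in D, 0.14 in E and -0.15 in F. For Slc17a6 and Slc17a8, r was -0.20 in B, -0.40 in C, 0.093 in D, 0.49 in E and 0.17 in F. For Slc17a7 and Slc17a8 it was -0.43, 0.11, -0.19, 0.39 and -0.33 in the same order. Series of 7 libraries leave such values wide.

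Among all genes tested, 12 rose with Slc17a6 and none fell. Each gene's log2(CPM + 1) was fitted with limma on the standardised log2 level of the transporter, so a slope is a log2 difference per SD of the transporter. At a Benjamini-Hochberg adjusted p under 0.05, 12 of 18748 genes passed (0.064%), all rising, and 0 fell; at an unadjusted p under 0.05 there were 1103 (5.88%). The level of a transcript in bulk tissue can differ through the number of cells that hold it or the RNA per cell, and the 2 cannot be told apart here.

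The closest relation was with Nrn1, neuritin, a membrane-anchored protein of neurons that promotes neurite growth. Nrn1 ranged from 10.9 to 55.6 CPM (median 25.2), and its slope on Slc17a6 was 0.47 ± 0.04 (SE) with limma's adjusted p of 1.07e-13. It stood at 30.1 CPM in D3, 55.6 in C21 and 43.01 in C11, against 12.8 CPM in B32, 12.1 in B28 and 16.8 in F2. All 3 Nrn1 values in the libraries highest for Slc17a6 lay above those in the 3 lowest. Nrn1 was picked by its relation to Slc17a6 in the same libraries, so this order follows in part from its choice. The same holds for the levels of Meis2 and C1ql3 given below. Pearson's r over 49 libraries was 0.88, and it was 0.98, 0.93, 0.82, 0.77 and 0.92 within series B to F.

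Meis2, a homeodomain transcription factor, had the next highest r (0.78) and a slope of 0.30 ± 0.04 (adjusted p by limma 4.39e-07). It stood at 14.5 CPM in D3, 15.6 in C21 and 11.9 in C11, against 4.50 CPM in B32, 7.71 in B28 and 5.41 in F2. C1ql3, a secreted synaptic protein of the C1q family, had a slope of 0.34 ± 0.05 and r = 0.72. Its levels were 12.8, 10.4 and 16.7 CPM in D3, C21 and C11, against 6.13, 6.12 and 4.07 CPM in B32, B28 and F2. The other strongly related genes were Lnp1 (slope 0.38 ± 0.05, r = 0.74) and Stum, the homologue of a Drosophila gene needed for mechanosensing (0.29 ± 0.04, r = 0.71).

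Ion channel subunits were Kcnab1, an auxiliary potassium channel subunit (slope 0.20 ± 0.03, limma's adjusted p = 0.00174), and Scn4b, an auxiliary sodium channel subunit (0.28 ± 0.06, adjusted p = 0.0477). Cpne4, a copine that binds membranes in response to calcium, had a slope of 0.25 ± 0.04 (adjusted p = 0.00196). Vwc2l, a secreted protein, had 0.20 ± 0.04 (adjusted p = 0.00376). Slc5a7, the choline transporter of cholinergic terminals, had 0.31 ± 0.07 (adjusted p = 0.0377). The other cholinergic markers were near 0: Chat had a median of 0.0858 CPM and was at 0 in 14 libraries, and Slc18a3 was at 0 in 23. Qrfpr, a neuropeptide receptor (0.27 ± 0.06, adjusted p = 0.029), fell outside the rule for named genes because r was -0.055 in series E; it is named with its values known. LOC120099215, an unnamed locus, had 0.27 ± 0.05 (adjusted p = 0.00764) and lies on chromosome 1, at 40.4 Mb from Slc17a6. The 12 genes lie on 8 chromosomes.

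**Figure D2:**
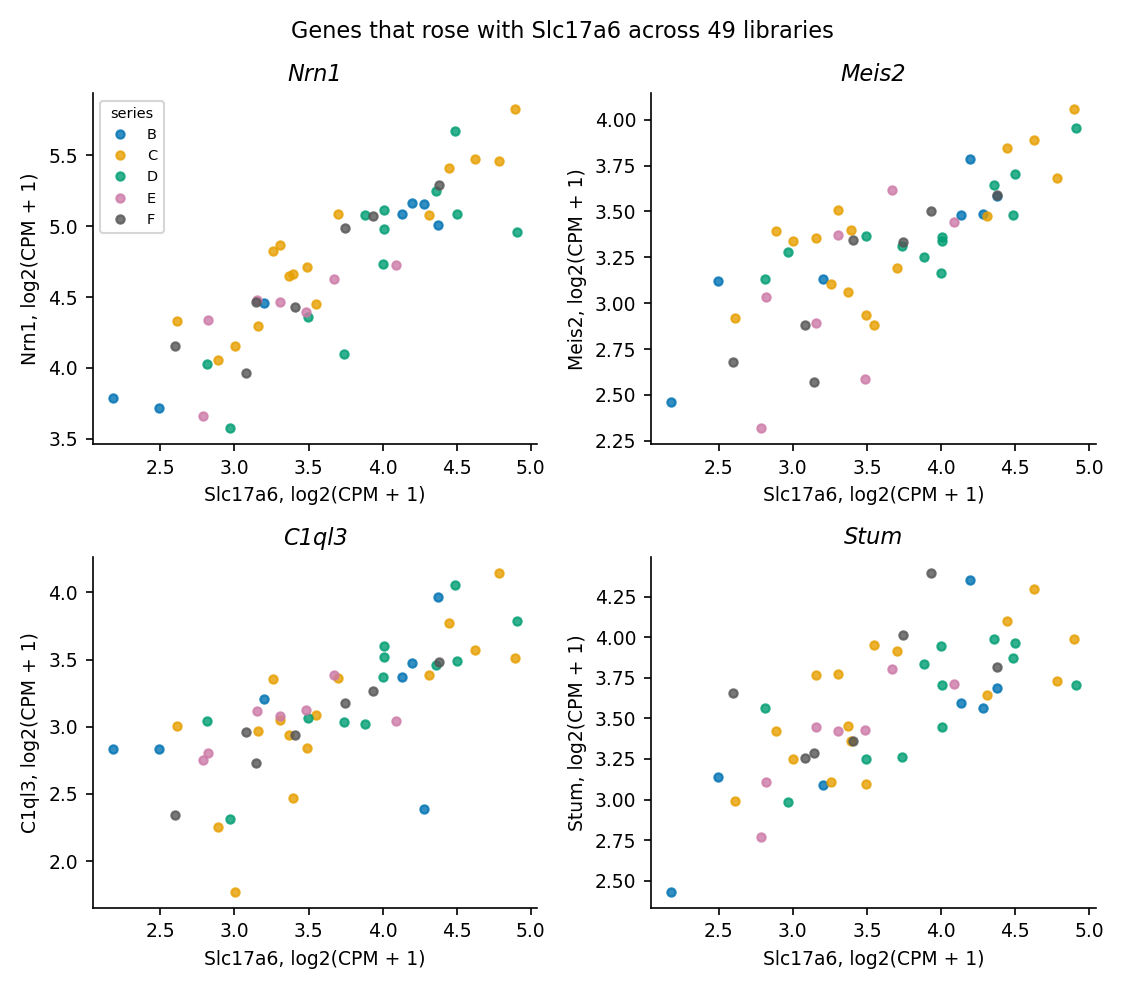
Levels of Nrn1, Meis2, C1ql3 and Stum against Slc17a6, all as log2(CPM + 1), in 49 libraries coloured by identifier series. Levels rise with Slc17a6 in each panel, most tightly for Nrn1 (r = 0.88), with wider scatter for C1ql3 in series B (r = 0.42). A single sign of r in every series was a condition for naming these genes.

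The 12 genes were also related to each other, with r above 0 in 66 of 66 pairs (0.15 to 0.78, median 0.46), which follows in part from their choice. On the other transporters, 0 of the 12 passed, as did 0 of all 18748 genes tested on each (0%). The count therefore says nothing particular about the 12. Nrn1 had a slope of 0.0045 ± 0.074 on Slc17a7 and -0.078 ± 0.073 on Slc17a8, and the lowest limma adjusted p of the 12 was 0.116 for C1ql3 on Slc17a8, with a slope of -0.19 ± 0.06. The difference between slopes on different transporters was not tested. In the plot of slopes side by side, all values on Slc17a6 lie to the right of those on Slc17a7 and Slc17a8. The genes were chosen by their slopes on Slc17a6, so this order cannot show that they are particular to it.

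**Figure D3:**
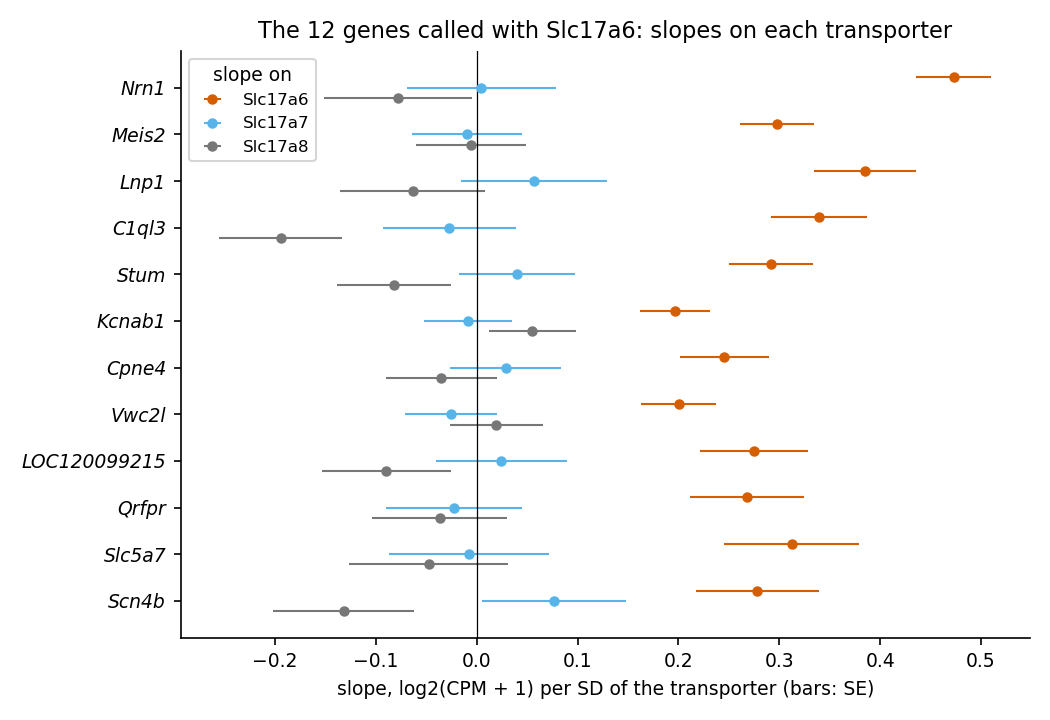
Slopes of the 12 genes called with Slc17a6 on each of the 3 transporters, in log2(CPM + 1) per SD of the transporter (points) with SE (bars), from 49 libraries. Slopes on Slc17a6 run from 0.20 to 0.47, and the genes were chosen by them. Slopes on Slc17a7 and Slc17a8 passed the test for none of the 12 and for 0 of all 18748 genes.

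Calls for 3 genes were lost under several alternatives. Scn4b kept its call in 4 of 13, Slc5a7 in 5 of 13 and Qrfpr in 7 of 12. Leaving out B32 and D3, the 2 most extreme for Slc17a6, 9 genes passed, and Qrfpr, Slc5a7 and Scn4b did not (limma's adjusted p of 0.263, 0.207 and 0.426). Nrn1, Meis2, Lnp1, C1ql3, Stum, Kcnab1, Cpne4 and Vwc2l passed in each alternative within the 49 libraries.

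The promoter windows were read because a homeodomain factor was among the 12 genes. The motif TGACAG, the core bound by MEIS proteins, was searched on both strands in the 250 bases before 1 listed start per gene (GRCr8). For Kcnab1 (window from 151614301) and Vwc2l (from 79702704), both on the plus strand, the window lies after the gene's position in the expression data. Those positions are 151446975 and 79702396. Windows were on hand for Slc17a6 and 9 of the 12 genes; Nrn1, Meis2 and LOC120099215 had none in the table used. The Slc17a6 window held no match, and 2 of the 9, Stum and Qrfpr, held 1 match each, against 4290 of 27457 windows in the whole table (15.6%). The matches describe letters in these windows only. Capitals mark the motif or its reverse complement; the windows lie at chr1:110348197-110348446 (plus strand), chr13:94759098-94759347 (minus) and chr2:121025021-121025270 (minus).
Slc17a6: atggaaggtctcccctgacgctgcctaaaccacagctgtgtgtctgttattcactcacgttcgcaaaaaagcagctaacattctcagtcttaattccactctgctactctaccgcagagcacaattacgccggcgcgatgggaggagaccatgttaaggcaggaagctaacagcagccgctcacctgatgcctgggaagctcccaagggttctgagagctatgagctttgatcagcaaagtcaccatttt
Stum: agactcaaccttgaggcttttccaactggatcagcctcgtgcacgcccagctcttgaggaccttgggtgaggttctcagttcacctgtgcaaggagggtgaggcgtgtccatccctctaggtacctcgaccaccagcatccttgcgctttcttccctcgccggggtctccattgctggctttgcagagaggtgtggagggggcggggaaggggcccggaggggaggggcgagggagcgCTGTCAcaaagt
Qrfpr: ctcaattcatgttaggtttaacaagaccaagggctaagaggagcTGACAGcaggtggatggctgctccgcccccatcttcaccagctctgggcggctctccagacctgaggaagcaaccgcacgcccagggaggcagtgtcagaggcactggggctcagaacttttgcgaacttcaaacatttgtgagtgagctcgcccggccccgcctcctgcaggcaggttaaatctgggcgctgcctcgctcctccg

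Slc17a6 was lower in more deeply sequenced libraries, a relation looked for after the data were seen. Its log2(CPM + 1) had r = -0.52 with log10 of the library total (permutation p = 0.00013, adjusted over 6 relations 0.00078; rho -0.48, permutation p = 0.00052, adjusted 0.0031; n = 49). Leaving out the 2 libraries with the most extreme totals gave -0.46, and within series B to F it was -0.72, -0.59, -0.15, -0.45 and -0.44. Nrn1 and Meis2 had r = -0.41 and -0.52 with the same measure. With log10 of the total as a covariate, 13 genes passed with Slc17a6, 10 of them among the 12; Slc5a7 (limma's adjusted p = 0.076) and Qrfpr (0.111) did not. Slc17a7 (r = -0.058, permutation p adjusted 0.831) and Slc17a8 (r = 0.27, adjusted 0.196) did not pass.

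**Figure D4:**
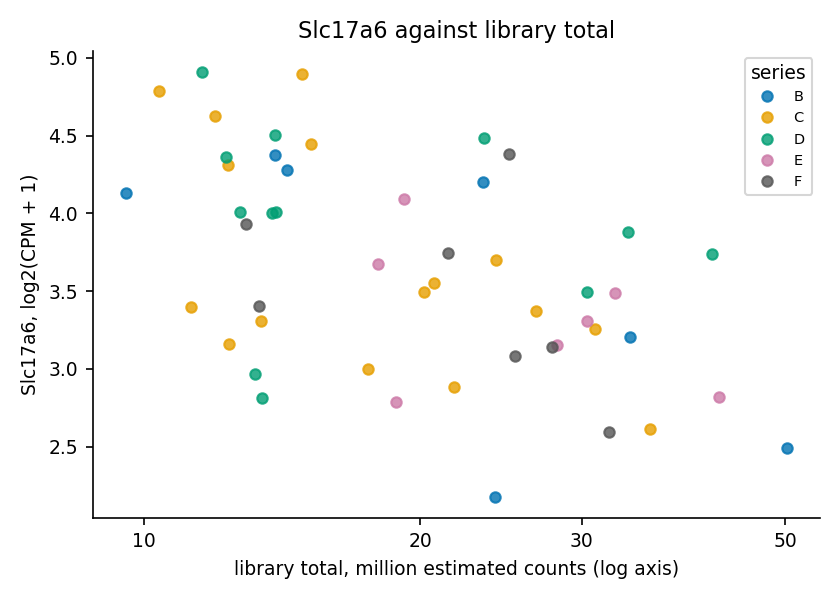
Slc17a6 as log2(CPM + 1) against the library total in M estimated counts (log axis) in 49 libraries coloured by identifier series. Libraries with larger totals lie lower (r = -0.52), with wide scatter at every depth.

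Gene lists for transmitter systems and cell types were set against Slc17a6, and 1 of 130 list genes tested passed (0.769%, against 0.064% of all genes), the choline transporter Slc5a7 described above. Among all genes, 53.9% of slopes were above 0 and the median slope was 0.0038. In the glutamate and glutamine cycle, 0 of 13 genes passed and 9 slopes were above 0 (median 0.018); Got1, an aminotransferase that makes glutamate, had the highest at 0.11 ± 0.04 (limma's adjusted p = 0.512). None of 15 synaptic vesicle and release genes passed. Of these, the vesicle fusion protein Vamp1 had 0.12 ± 0.03 (adjusted p = 0.0867) and complexin Cplx1 had 0.14 ± 0.04 (adjusted p = 0.132). Among AMPA and NMDA receptor subunits 0 of 10 passed (9 slopes above 0, median 0.028). In the list of midbrain and thalamic glutamatergic transcription factors, 3 of 6 met the expression filter and limma called 0. Lhx9 of that list had 0.19 ± 0.05 (adjusted p = 0.0900) at a median of 0.579 CPM.

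Of the genes of the inhibitory and dopamine systems, 0 passed with Slc17a6, against 12 of all 18748 genes (0.064%). At so low a share, 0 passing in a short list says little about that list. For the 4 GABAergic genes, the slopes on Slc17a6 had a median of 0.040; Gad1 had 0.038 ± 0.036. The 8 RMTg inhibitory genes had a median of -0.031, with 1 slope above 0 and 0 passing. All 11 dopaminergic genes had slopes below 0 (median -0.076) and 0 passed; tyrosine hydroxylase Th had -0.22 ± 0.12 (limma's adjusted p = 0.864). For glia, the slopes of 6 of 6 oligodendrocyte, 6 of 6 astrocyte and 6 of 6 microglia genes were below 0, with medians of -0.049, -0.064 and -0.093, and 0 passed. Gfap, the astrocyte filament protein, had -0.26 ± 0.06 (adjusted p = 0.103). The 7 immediate early genes had the most negative median, -0.39, but their spread between libraries was wide and 0 passed; Fos had -0.46 ± 0.25 (adjusted p = 0.861). Of the other transporters of the SLC17 family, 3 of 6 genes met the expression filter and limma called 0. Slc17a5, the lysosomal sialic acid transporter, had a slope of 0.0063 ± 0.029.

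**Figure D5:**
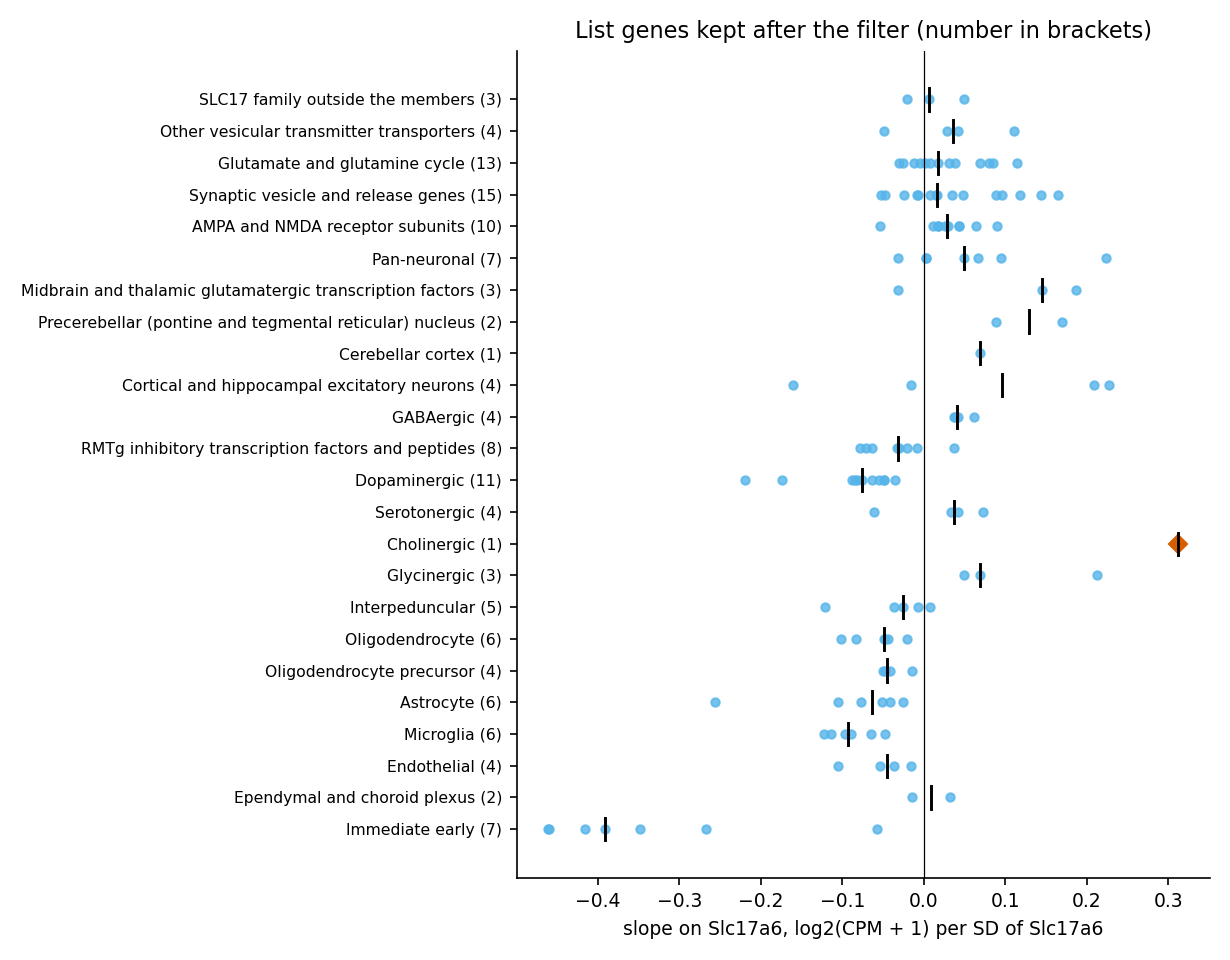
Slopes of list genes on Slc17a6, in log2(CPM + 1) per SD of Slc17a6, by list, with the list median as a black bar. Only Slc5a7 (diamond, 0.31) passed the adjusted threshold; immediate early genes lie farthest to the left with a median of -0.39.

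No gene passed with Slc17a7 or Slc17a8 in the fit used here, but 67 passed with Slc17a7 without the expression filter, and 311 with Slc17a8 (193 rising, 118 falling) under size factors by median of ratios. With Slc17a7, limma called 0 of 18748 genes (0%), 404 had an unadjusted p under 0.05 (2.15%), and limma-voom also called 0. Among list genes the closest were Lamp5 (slope 0.20 ± 0.06) and Sv2b (0.11 ± 0.04), each with limma's adjusted p of 0.999, and both rank first in C17. With Slc17a8, limma and limma-voom each called 0 of 18748 (0%), yet 3098 genes had an unadjusted p under 0.05 (16.5%). Without C22 and D6, that number was 1128 (6.02%), so it depended on those 2 libraries. The list genes nearest the threshold on Slc17a8 were the astrocyte water channel Aqp4 (slope 0.22 ± 0.05), the kinase Camk2a (-0.20 ± 0.05) and the vesicle calcium sensor Syt2 (-0.19 ± 0.05), each with an adjusted p of 0.0804. All 11 dopaminergic genes had slopes above 0 on Slc17a8 (median 0.12), against 42.3% of all genes, and 0 passed. The same held for all 7 immediate early genes (median 0.31), 5 interpeduncular genes (0.13) and 4 serotonergic genes (0.023), again with 0 passing. By contrast, 13 of 15 synaptic vesicle and release genes had slopes below 0. One sign across a list was thus not particular to the dopaminergic genes.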

How the data were processed

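Polyadenylated RNA of the RMTg was sequenced by the authors. The deposited table holds log2 values which, from the values, are log2 of an estimated count plus 1; kallisto 0.48 is named per the submitters' processing notes, and the genome build is not given in the sources used here. Positions in the table equal a RefSeq GRCr8 gene end for 38272 of 38278 matched symbols. Values were back-transformed, scaled to CPM with the column total, and taken as log2(CPM + 1). The 49 libraries used were described above; the 43 others are given by range. A gene was kept when 20% or more of the 49 libraries had a log2 value of 1 or above (18749 genes), and each transporter was left out of the test on itself. All 3 transporters passed, Slc17a7 through 11 libraries. Whole-read counts could not be recovered for all genes (49.98% of back-transformed values under 20 were whole within 0.01), so no count model was the main test. Slopes and series differences were tested with limma 3.58.1 (moderated statistics, mean trend, Benjamini-Hochberg) in R 4.3.3. Correlations used 100000 permutations (Python 3.11.15, numpy 2.4.6). The slope procedure and the series test were tried on simulated data. No 2 libraries were identical (0 pairs). Named genes are the transporters, genes of 24 lists (153 genes), and per transporter the 12 highest and 6 lowest by r among genes that passed with 1 sign of r in every series of at least 6 libraries, passing over symbols such as LOC; 10 genes qualified. Cabp7 and other exceptions were named with values known. The transporters and lists were chosen with earlier results of these data known. Alternatives covered pseudocounts, filters, scalings, covariates and libraries left out.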

Additional observations from a re-analysis of the deposited data

Results flagged for a closer look

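The transporters were also counted in the 43 libraries that the report does not use, which is why they are given here. In the 32 libraries where LOC120093067 and Zfp532 took at least 10% of the counts, Slc17a6 had more than 3 counts in 32, Slc17a7 in 4 and Slc17a8 in 31. Slc17a6 there had 4 to 81 counts (median 19), Slc17a7 was at 0 in 17 libraries with 71 counts in the highest, and Slc17a8 had 2.50 to 31.4 estimated counts (median 14.2). In the 11 libraries where Nif3l1 took at least 20%, 1 had more than 3 counts of Slc17a6, with 6 counts, and 6 were at 0; over all 11, Slc17a7 had 1 count and Slc17a8 had 4.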

How the results depend on the processing

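No paired analysis was possible because all samples form 1 group. The number of genes called with Slc17a6 was 9 to 18 under all alternatives within the 49 libraries, against 12. In the 32 libraries of the second kind it was 0 by limma, with 3347 genes at an unadjusted p under 0.05 (16.7%). There, r with Slc17a6 was above 0 for 12 of 12 of the genes (0.20 to 0.54, median 0.37), and for 14458 of 18741 genes overall (77.1%, median 0.16). The count for Slc17a7 was 0, but 67 (66 rising) without a filter, 4603 in the second kind (3809 rising) and 4134 there without the library highest for Slc17a7; in those libraries Slc17a7, at 0 in 17 of 32, had r = 0.40 with log10 of the total. The count for Slc17a8 was 1 with a pseudocount of 5 and 311 (193 rising) with size factors by median of ratios. Series differences were called for 105 genes with Xist and Ddx3y as covariates, against 320. The cause of these shifts was not tested. The r of Slc17a6 and Slc17a7 turned to -0.011 with a pseudocount of 5, -0.018 after removing log10 of the total, -0.049 without series B, -0.0094 without series E and -0.055 without the 2 farthest libraries. The r of Slc17a7 and Slc17a8 turned to 0.0093, 0.0060 and 0.023 under the first 3 of these, 0.0031 without series D and 0.038 without series F. The r of Slc17a6 and Slc17a8 was 0.032 in the second kind, and that of Slc17a7 with log10 of the total was 0.0033 without the 2 farthest libraries. None of these r values was far from 0. Other scalings shifted the median of all genes by at most 0.039 on the log2 scale. Low counts limit Slc17a7 most, since 20 libraries had 3 counts or fewer.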
